A study of Arabidopsis thaliana with 3 samples.

Results

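Kinase genes are described here among the loci that had a binding peak of PISTILLATA (PI) or of its partner APETALA3 (AP3) in young Arabidopsis flowers. The members are the loci in either deposited gene table whose annotation text holds the word kinase, apart from 7 receptor and signalling loci that the rule left out, 3 of which were listed. They number 179 of the 3132 loci listed for either factor. The members were chosen by having a peak score in the PI or AP3 gene table, so their counts and scores are a description, and no test was made on them.

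Chromatin immunoprecipitation followed by sequencing was done with an anti-GFP antibody on flowers of PI-GFP AP1-GR ap1 cal and AP3-GFP AP1-GR ap1 cal plants, with AP1-GR ap1 cal plants lacking a GFP fusion as the negative control. All 3 groups were in the Ler background, grown at 20 °C to about 4 weeks, and sampled 4 days after 10 µM dexamethasone, at about floral stage 4 to 5. AP1-GR is expressed from the 35S promoter in a double mutant that forms meristems in place of flowers, and the steroid lets it start flower development in many of them together. Ler, Landsberg erecta, carries a mutant allele of the receptor kinase gene ERECTA, so every group lacked normal function of 1 of the genes described below. Each group had 1 library, so no value has a replicate check. With 1 control library, any comparison of a list with a control used the same library for both factors. The control's own values were not analysed here.

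PI and AP3 are MADS-domain transcription factors that act as a pair to specify petals and stamens. Receptor-like kinases carry an extracellular domain that senses peptides, hormones or wall fragments and an intracellular domain that passes the signal on by phosphorylation. Cytoplasmic protein kinases relay such signals, while metabolic kinases phosphorylate sugars, nucleotides, lipids or vitamins. In flowers, receptor kinases are known for limiting the stem cell pool, shaping organ growth and specifying anther cell layers.

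The label kinase was checked against the annotation text of each locus, without regard to scores. The product was a receptor-like kinase at 52 loci, another protein kinase at 60 and a kinase of small molecules at 28. At the other 39 loci the word stood only in a mention of another protein or domain, as for cyclins, kinase inhibitors and LBD4 (AT1G31320), whose text matched through carboxykinase. The products were therefore kinases at 140 loci and protein kinases at 112. An InterPro domain with kinase in its name was given in the text of 112 loci, out of 130 whose text gave any InterPro domain. These are not the same 112 loci as the protein kinases. They include small-molecule kinases such as FAB1A and mentions such as AT1G01320, and leave out protein kinases such as ERL1 and OST1. No histidine kinase was a member.

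Scores are the authors' own peak scores, which the file headers call Poisson and which have no stated scaling for library size. They rank peaks within a list and are not amounts that can be set against each other between lists. The gene tables give the highest score in 5 windows, from 3000 bp upstream of a gene to 1000 bp downstream. A locus absent from a table may have had a peak under the authors' threshold. PI was listed at 139 of the kinase-annotated loci and AP3 at 121. Over all protein-coding loci of the reference, 8.66% were listed for PI, 7.23% for AP3 and 5.3% for both.

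Both factors were listed at 81 of the 179 loci, PI alone at 58 and AP3 alone at 40. The share listed for both was 45.3% (exact 95% interval 37.8 to 52.8), beside 49.7% of all listed loci. Of the 139 PI-listed members 58.3% were AP3-listed too, beside 61.2% of all PI-listed loci. Of the 121 AP3-listed members 66.9% were PI-listed too, beside 72.6% of all AP3-listed loci. Kinase-annotated loci were thus near the background in how often the tables shared them.

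The highest PI score of a member had a median of 89.3 (95% interval 67.6 to 105) and a range of 25.3 to 1944, beside a median of 87.7 over all PI-listed loci. For AP3 the median was 58.8 (47.1 to 79.9) and the range 28.6 to 1403, beside 58.2 over all AP3-listed loci. Neither median stood apart from its list. Of the 200 highest-scoring loci of each list, 11 were members for PI and 13 for AP3, which is 5.5% and 6.5% of those loci, where members made up 5.46% and 5.64% of the whole lists. Members listed for both factors had a median PI score of 129, against 55.6 for members listed for PI alone. Their median AP3 score was 91.7, against 37.4 for members listed for AP3 alone. Over all listed loci these medians were 130 and 53.1 for PI and 80.3 and 37.9 for AP3, so the gap was not particular to kinase genes.

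**Figure D1:**
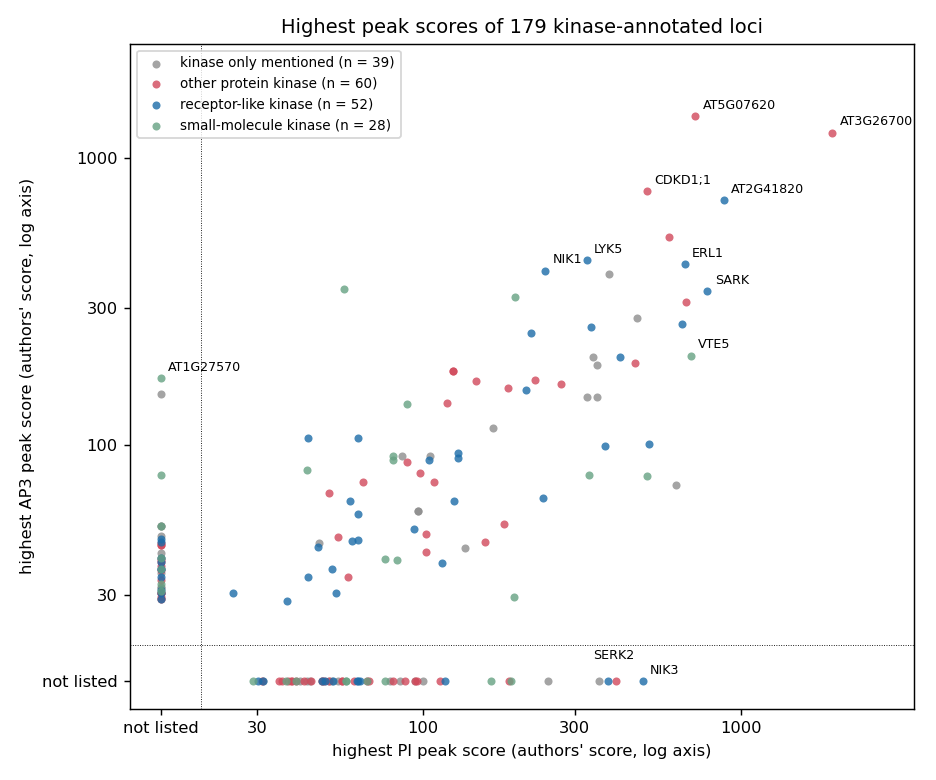
Highest PI peak score (horizontal, log axis) against highest AP3 peak score (vertical, log axis) for the 179 kinase-annotated loci, each point a locus coloured by class and a locus absent from a table placed at "not listed". AT3G26700 has the highest PI score (1944) and AT5G07620 the highest AP3 score (1403), while SERK2 and NIK3 lie on the line of loci not listed for AP3.

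The share of loci that both tables listed was 59.6% for receptor-like kinases (31 of 52, 45.1 to 73.0), 40.0% for other protein kinases (24 of 60, 27.6 to 53.5), 42.9% for small-molecule kinases (12 of 28, 24.5 to 62.8) and 35.9% where kinase was only mentioned (14 of 39, 21.2 to 52.8). The intervals overlap, they cover counting error over loci only, and the interval of the receptor-like class holds the 49.7% of all listed loci. Median PI scores were 99.0, 91.8, 80.2 and 96.5 in the same order of classes, and median AP3 scores were 57.6, 60.6, 78.5 and 58.8.

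Leucine-rich repeat receptor kinases, the largest receptor kinase family of plants, made up 40 of the 52 receptor-like members. Both factors were listed at 25 of them, PI alone at 10 and AP3 alone at 5. The share for both, 62.5%, had an interval of 45.8 to 77.3 that holds the 49.7% of all listed loci. The remaining receptor-like members were 4 lectin-domain kinases, 3 wall-associated kinases, the LysM kinase LYK5, the malectin-like kinase FER, the extensin-like kinase PERK14, CRN and AT4G18250. Of the lectin-domain kinases, which carry a sugar-binding domain outside the cell, AT5G03140 was listed for both factors, scoring 114 for PI and 38.7 for AP3. LECRK1, LECRKA4.1 and LECRKA4.3 were listed for AP3 alone, at 29.1 to 45.9.

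The receptor-like member with the highest score in either list was AT2G41820, a leucine-rich repeat kinase annotated as putative. It scored 885 for PI (rank 83 of 2544 loci) and 716 for AP3 (rank 52 of 2146), 0 to 1000 bp upstream of the gene. The PI peak spanned chr2:17446097-17446695 and the AP3 peak chr2:17446132-17446665 in TAIR10, with both maxima at base 17446455. No other locus was listed for this peak. A lower pair of peaks lay 2000 to 3000 bp upstream, at 144 for PI and 63.7 for AP3, again with maxima at 1 shared base, 17444025. Both libraries therefore had the same pair of sites, with the proximal site the higher in each.

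SARK (AT4G30520), a receptor kinase known from leaf senescence, scored 786 for PI and 344 for AP3, 1000 to 2000 bp upstream. Its PI peak, chr4:14912815-14913456, and its AP3 peak, chr4:14912920-14913277, had their maxima at the same base and were listed for no other gene. The annotation text of SARK names AT2G23950 as a similar protein. AT2G23950 scored 374 and 99.0 in the same window of its own gene, and its PI peak, chr2:10191383-10191891, was listed for no other gene either. In both lists SARK ranked above AT2G23950.

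ERECTA and its paralogs ERL1 and ERL2 encode receptors that act together in stomatal patterning, organ growth and the development of floral organs. ERL1 (AT5G62230) had 3 separate sites in each library. PI scored 667 at the farthest site upstream (chr5:24993640-24994166), 377 at the middle site (chr5:24994590-24995121) and 333 at the site nearest to or inside the gene (chr5:24995617-24996551). AP3 scored 238, 427 and 229 at the same 3 sites. Every PI peak overlapped an AP3 peak, and the site with the highest score differed, being the farthest for PI and the middle one for AP3, with maxima of these highest peaks 983 bp apart. At the third site the gene tables put the PI score inside the gene and the AP3 score 0 to 1000 bp upstream, although the peaks overlapped.

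ERL2 (AT5G07180) scored 212 for PI and 156 for AP3, 1000 to 2000 bp upstream, where the PI peak was 1668 bp wide, the widest PI peak positioned at a member. That PI peak (chr5:2234394-2236061), also listed for the neighbouring gene ATS3, covered 2 AP3 peaks, of scores 156 and 51.8. A second PI peak of 149.8 lay 0 to 1000 bp upstream with an AP3 peak of 76.2. ER (AT2G26330) itself was listed for AP3 alone, with 37.0 inside the gene, at a peak also listed for AGL33. ERL1 and ERL2 thus had more than 1 site for both factors, and ER a single site for AP3.

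SERK proteins are short co-receptors that pair with ligand-binding receptor kinases, and SERK1 and SERK2 are jointly needed for the tapetum of the anther. Of the 5 genes with a SERK name in the reference, 3 were listed, all for PI alone. Over all protein-coding loci 8.66% were listed for PI, and 986 of the 2544 PI-listed loci were listed for PI alone. SERK2 (AT1G34210) scored 382, 2000 to 3000 bp upstream at chr1:12455503-12455954, SERK1 (AT1G71830) scored 63.5 and BAK1 (AT4G33430), the co-receptor of brassinosteroid and flagellin receptors, scored 31.3, both 0 to 1000 bp upstream. The scores of SERK1 and BAK1 were below the median PI peak score of 88.1. SERK2 and BAK1 each shared their peak with a neighbouring gene. BIR1 (AT5G48380), which binds BAK1, was listed for PI alone at 48.2.

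NIK kinases are relatives of the SERK proteins with a role in antiviral defence. NIK3 (AT1G60800) had the highest score of any member listed for 1 factor only, 491 for PI, 0 to 1000 bp upstream, at a peak shared with ACLA-2. NIK1 (AT5G16000) was listed for both factors with its highest scores downstream, 243 for PI and 405 for AP3, at peaks also listed for AT5G16010 and GEX3. It also had a pair of peaks 2000 to 3000 bp upstream, at 185 and 66.3.

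**Figure D2:**
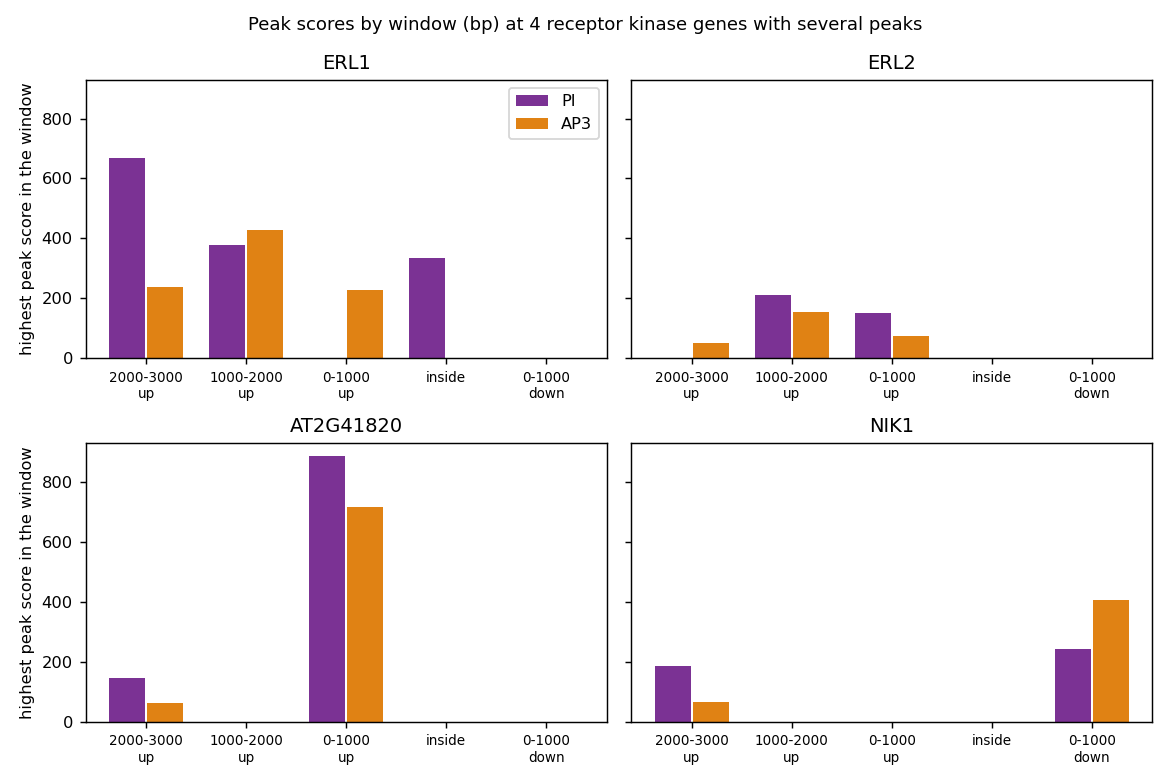
Highest peak score in each of the 5 gene windows (bars from 0, linear axis) for PI and AP3 at ERL1, ERL2, AT2G41820 and NIK1; a missing bar means that no score was listed there. PI and AP3 fill the same windows at AT2G41820 and NIK1, while at ERL1 the highest bar is 667 at 2000 to 3000 bp upstream for PI and 427 at 1000 to 2000 bp for AP3.

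Among other receptor kinases of known function, CRN (AT5G13290) is a membrane kinase-like protein that works with CLAVATA2 to limit the floral and shoot stem cell pool. It scored 417 for PI and 203 for AP3, 0 to 1000 bp upstream, at chr5:4254769-4255354 for PI, a peak also listed for SFC. LYK5 (AT2G33580), part of the chitin receptor, scored 328 and 441 at 2000 to 3000 bp upstream, where the PI peak was listed for 3 other loci. WAKL7 (AT1G16090), a wall-associated kinase-like protein, scored 338 and 258 in the same window. PEPR1 (AT1G73080), the receptor of Pep danger peptides, scored 219 and 245, 0 to 1000 bp upstream. These genes were listed for both factors in the same window of each. The peaks of WAKL7 and PEPR1 were also listed for other loci.

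FER (AT3G51550), the malectin-like receptor FERONIA of cell growth and pollen tube reception, scored 62.4 for PI and 105 for AP3, 0 to 1000 bp upstream with maxima at the same base. Both peaks were also listed for AT3G51560. RPK1 (AT1G69270), which acts in embryo patterning, scored 51.9 and 36.8. IKU2 (AT3G19700), a seed size regulator, was listed for AP3 alone at 39.0. Several leucine-rich repeat kinases of high score have no gene symbol in the reference. AT1G67720 scored 652 and 264 downstream, at a peak also listed for KCR1, and AT1G05700 scored 516 and 101 downstream, at a peak shared with AT1G05710. The lowest receptor-like scores were 25.3 for PI at RLK (AT5G67280), where AP3 scored 30.5, and 28.6 for AP3 at AT1G79620, where PI scored 37.4.

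**Figure D3:**
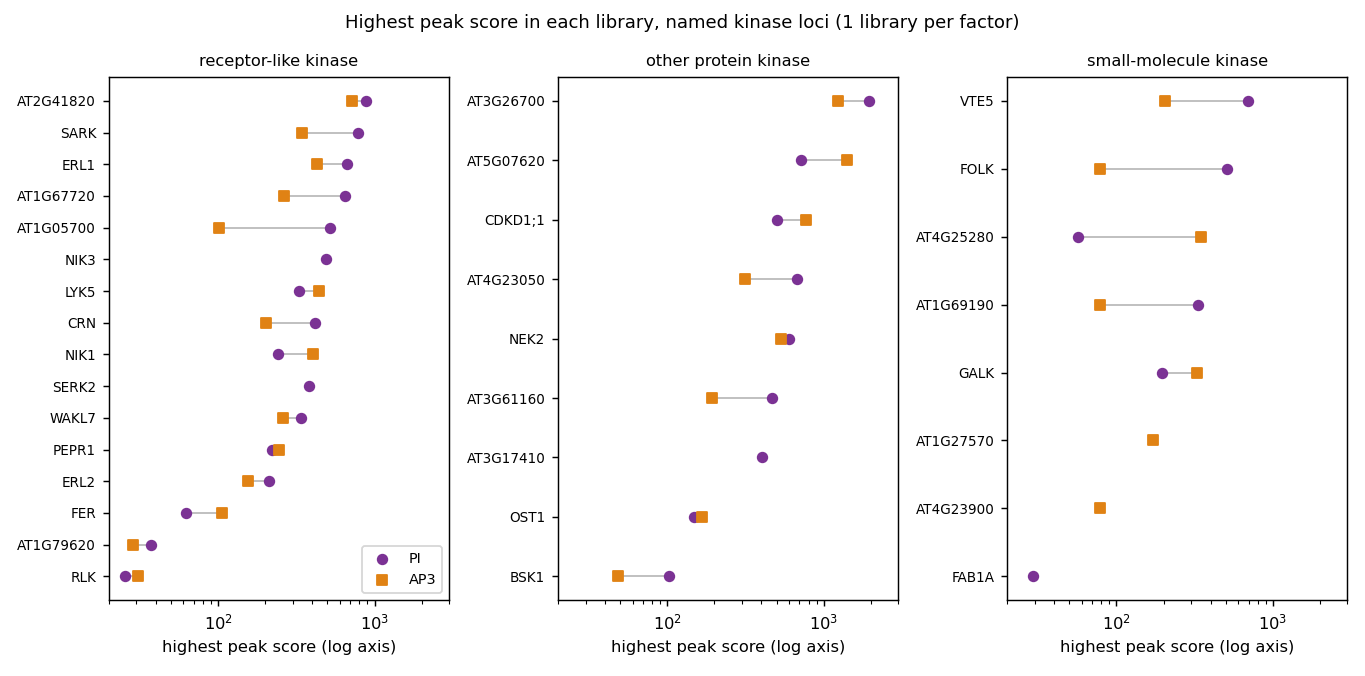
Highest score in the PI library (circles) and the AP3 library (squares) on a log axis for the named kinase loci, with a line joining the values of a locus listed for both. Receptor-like kinases run from 885 (AT2G41820, PI) to 25.3 (RLK, PI), and a single symbol marks a locus listed for 1 factor.

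Among the other protein kinases, AT3G26700 had the highest PI score, 1944, and scored 1227 for AP3, at rank 20 in each list. Its text calls it a protein kinase family protein and names AT1G79620 as similar. The peak lay 0 to 1000 bp downstream, at chr3:9812603-9813270 for PI and chr3:9812625-9813251 for AP3, and was also listed for CCB1, so the tables do not assign it to 1 gene. AT5G07620, a protein kinase family protein, scored 719.95 for PI and 1403 for AP3, 0 to 1000 bp upstream, with maxima at the same base and a peak also listed for AT5G07625 and AT5G07630. It stood at rank 117 of the PI loci and rank 14 of the AP3 loci.

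AT4G23050, a kinase with a PAS domain in its text, scored 675 and 314 downstream, at a peak also listed for IQD22. NEK2 (AT3G04810), a NIMA-related kinase, scored 596 and 529.6, 1000 to 2000 bp upstream, at a peak listed for 3 other loci. CDKD1;1 (AT1G73690), a kinase that activates cyclin-dependent kinases, scored 506 and 766, 1000 to 2000 bp upstream, at chr1:27713314-27713844 for PI. That peak was also listed for MIR159a, the gene of a microRNA that acts on GAMYB-like transcripts. AT3G17410 had the highest score of another protein kinase listed for PI alone, 405, at a peak also listed for MTO3 and AT3G17400. All of these highest-scoring protein kinase loci shared their peak with at least 1 other locus.

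Glycogen synthase kinase 3 relatives, the shaggy-like kinases, act in brassinosteroid signalling and flower patterning. Their 5 members were listed for both factors at 3 loci and for PI alone at 2. AT3G61160 scored 464 and 193, 1000 to 2000 bp upstream (chr3:22633960-22634739 for PI), at a peak also listed for HDG1, an epidermal homeodomain gene. SK41 scored 89.1 and 87.2, and SK13 scored 50.6 inside the gene for PI and 68.0 upstream for AP3. BIL2 scored 80.5 and SK32 35.9, both for PI alone. Among these 5 members AT3G61160 scored highest in both lists. Any shaggy-like locus that was unlisted, or that the rule left out, is not covered.

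CIPK kinases are activated by calcium through CBL sensor proteins. Of 26 CIPK genes in the reference, 4 were listed, 3 for PI and 4 for AP3. Over all protein-coding loci, 8.66% were listed for PI and 7.23% for AP3. CIPK11 scored 272 and 163, 2000 to 3000 bp upstream, at peaks also listed for CHAL. CIPK14 and CIPK15 lie next to each other and shared 1 peak downstream of both, chr5:312200-312458 for PI with a score of 124, where AP3 scored 181.5, so that peak is 1 site listed for both genes. CIPK15 also had lower scores 0 to 1000 bp upstream, 42.3 for PI and 41.3 for AP3. CIPK9 was listed for AP3 alone at 29.1. CPK13, a calcium-dependent protein kinase, had PI scores of 99.2, 179.96 and 159 in 3 windows, and AP3 scores of 36.1 and 53.1 at the first 2 of these sites.

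BSK1 (AT4G35230), a cytoplasmic substrate of the brassinosteroid receptor, scored 102 and 48.7, 0 to 1000 bp upstream, with maxima at the same base and no other locus listed. BSK2 was listed for AP3 alone at 29.5. OST1 (AT4G33950), the SnRK2 kinase of abscisic acid signalling in guard cells, scored 147 and 166, 0 to 1000 bp upstream, at peaks also listed for AT4G33945. CTR1 (AT5G03730), the kinase that holds back ethylene signalling, was listed for PI alone at 35.1. The 4 AGC-like kinases scored 50.6 to 67.6 for PI, and 1 of them, AT2G44830, was listed for AP3 as well, at 34.7. MKK8, a MAP kinase kinase, scored 108 and 74.1.

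Small-molecule kinases with high scores came from lipid, vitamin, sugar and nucleotide metabolism. VTE5 (AT5G04490), the phytol kinase of tocopherol synthesis, scored 695 for PI and 205 for AP3, and FOLK (AT5G58560), farnesol kinase, scored 506 and 78.1, both 0 to 1000 bp upstream. AT1G69190, an enzyme of folate synthesis, scored 333 and 78.5 downstream, at a peak listed for no other locus. GALK (AT3G06580), galactokinase, scored 195 and 326 downstream. AT4G25280, an adenylate kinase family protein, scored 56.5 for PI and 348 for AP3, 0 to 1000 bp upstream with maxima 13 bp apart. It stood at rank 1780 of 2544 PI loci and at rank 164 of 2146 AP3 loci. The peaks of VTE5, FOLK, GALK and AT4G25280 were each also listed for other loci. The diacylglycerol kinase genes DGK6 and DGK7 were listed for both factors, at 76.1 and 43.2 for PI and at 39.9 and 81.5 for AP3. FAB1A, a phosphoinositide kinase, had the lowest PI score of the class, 29.2, and was not listed for AP3.

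Of the 40 members listed for AP3 alone, the highest score was 170 inside AT1G27570, annotated as a phosphatidylinositol kinase family protein. Its peak, chr1:9579381-9582058, was 2678 bp wide, the widest in the AP3 list. It belonged to a run of 13 AP3 peaks between 9567617 and 9591376 on chromosome 1 with no PI peak among them. The run also held AT1G27590, at 150.2 for AP3, whose text mentions a kinase only. The next such member, AT4G23900 (nucleoside diphosphate kinase 4), scored 78.5 inside the gene. The highest members listed for AP3 alone thus included 2 loci of the same stretch of chromosome 1.

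Among the 39 loci whose text only mentions a kinase were regulators of the cell cycle kinases. KRP proteins inhibit cyclin-dependent kinases, and 3 of 7 KRP genes were listed, beside 8.66% of protein-coding loci for PI and 7.23% for AP3. KRP6 and KRP7 were listed for PI alone at 48.2 and 31.3, and KRP3 for AP3 alone at 42.0. Each of these scores was below the median peak score of its list. The D-type cyclin gene CYCD3;2 (AT5G67260), which promotes cell division, scored 353 and 190.1 downstream, with maxima at the same base and no other locus listed. The highest score of these 39 loci was 624 for PI at AT4G31340, a myosin heavy chain-related gene, where AP3 scored 72.6. AT1G14600, a putative Myb factor gene, was listed for PI alone at 357. The lowest AP3 score of the group, 29.1 at AT1G01130, came from the peak that CIPK9 shared.

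The windows of the highest scores were compared with those of all listed loci. For PI, 46 of 139 members (33.1%, 25.4 to 41.6) had it 0 to 1000 bp upstream, beside 30.8% of all PI-listed loci. For AP3 it was 27 of 121 (22.3%, 15.2 to 30.8), beside 27.5%. Downstream windows held it for 24.5% of the PI-listed members and 28.9% of the AP3-listed members, beside 19.4% and 21.3%. It lay inside the gene for 12.2% and 23.1%, beside 16.9% and 20.8%. The interval of the members held the share of all loci in each of these comparisons. By class, small-molecule kinases had 12 of 21 PI-listed loci in the proximal upstream window (57.1%, 34.0 to 78.2), receptor-like kinases 15 of 42 (35.7%) and other protein kinases 14 of 48 (29.2%). The interval of the small-molecule kinases leaves out the 30.8% of all PI-listed loci. The classes, windows and factors give many such intervals, and no correction was made for their number, so this value is a description. For AP3 the same window held 6 of 19 small-molecule kinases (31.6%, 12.6 to 56.6), 8 of 41 receptor-like kinases (19.5%) and 8 of 36 other protein kinases (22.2%), beside 27.5% of all AP3-listed loci.

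**Figure D4:**
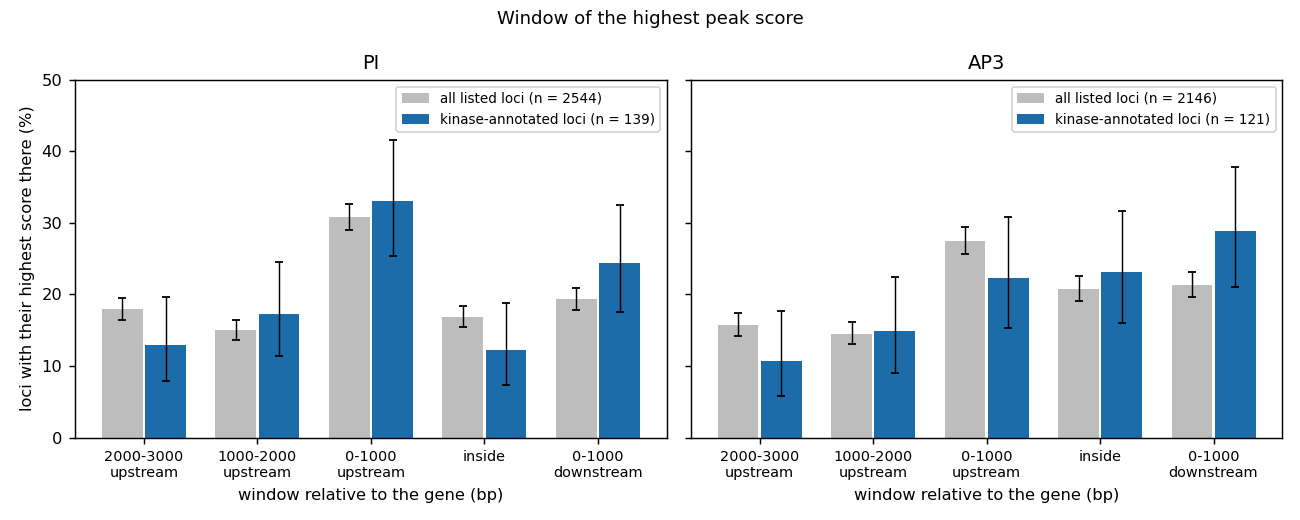
Share of loci with their highest score in each window (percent, bars from 0) for PI and AP3, for all listed loci in grey and kinase-annotated loci in blue, with exact 95% intervals for counting error over loci. In the window 0 to 1000 bp upstream the kinase-annotated loci stand at 33.1% for PI and 22.3% for AP3, beside 30.8% and 27.5% of all listed loci.

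Scores in more than 1 window occurred at 12 PI-listed members (8.63%, beside 12.3% of all PI-listed loci) and 15 AP3-listed members (12.4%, beside 11.1%). Receptor-like kinases made up 6 and 8 of these, and no small-molecule kinase was among them. Of the 81 members in both tables, 77 (95.1%) had their highest score in the same window for both factors, beside 90.0% of all loci in both tables. The exceptions were RPK1, IPK2a, SK13 and ERL1. At IPK2a the highest peaks overlapped by 241 bp, with maxima 81 bp apart. The AP3 peak of SK13 overlapped a PI peak of 50.6, its PI score. At IPK2a and SK13 the windows thus differed at overlapping peaks.

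Peak positions were compared where a score belonged to a single peak of the chromosome. For 66 of the 81 members both highest peaks could be placed, and they overlapped at 64 (97.0%, 89.5 to 99.6), beside 94.9% of all such loci. The exceptions were ERL1 and AT4G39270, with maxima 983 and 377 bp apart. Outside these 66, the PI peaks of RLK (AT5G67280) and AT2G44830 overlapped no AP3 peak, the nearest being 582 and 2 bp away. The other members with only 1 highest peak placed had it overlapping a peak of the other factor. The median distance between maxima of the 64 overlapping pairs was 17.5 bp (quartiles 2 and 51), beside 20 bp over all such loci, and at 10 members they fell on the same base. Of members listed for 1 factor, 36 PI peaks and 14 AP3 peaks could be placed, and none lay within 1000 bp of a peak of the other factor, the nearest being 2051 and 2865 bp away. Over all listed loci, 22 of 633 and 7 of 208 such peaks did.

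Many peaks were listed for several loci, which bears on how far a score belongs to a kinase gene. A member was the sole locus listed for its placed peak at 25 of 106 PI-listed members (23.6%) and 18 of 84 AP3-listed members (21.4%), beside 23.2% and 21.1% of all placed loci. The count was 9 of 34 and 9 of 27 for receptor-like kinases, and 4 of 33 and 1 of 28 for other protein kinases. AT2G41820, SARK, ERL1 and BSK1 were sole loci, whereas AT3G26700, AT5G07620, CDKD1;1 and NEK2 were not. Apart from the CIPK14 and CIPK15 pair, members shared a peak at AT1G53080 and SPA4, at AT1G01130 and CIPK9, and at APK1B and AT2G28940.

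Characterised kinase genes, 74 in 9 lists, were looked up to see which were listed and which were not. Those listed are themselves members described above. PI and AP3 were each listed at 11 of the 74 (14.9%), both at 7 and neither at 59, beside 8.66% and 7.23% of protein-coding loci. Of 7 genes of the ERECTA family and its co-receptors, PI was listed at 5 and AP3 at 3. Peptide and meristem receptors had 2 and 3 of 12, brassinosteroid receptor relatives and cytoplasmic partners 2 and 2 of 7, and cell wall and defence receptors 1 and 2 of 9. Kinases of the SnRK and blue light group had OST1 alone, of 7. No gene was listed among 8 AGC kinases of auxin transport such as PID, 8 kinases of the MAP kinase cascade such as YDA and MPK6, 9 cell cycle kinases such as CDKA;1, or 7 histidine kinases and ethylene receptors such as AHK4. Members outside these lists included kinases of related kinds, such as CDKD1;1, MKK8 and the AGC-like AT2G44830. An empty list therefore does not cover every kinase of its kind. The 7 loci that the rule left out, 3 of which were listed, are in none of the lists, and no count here covers them. The lists were chosen with earlier results known, so these counts are a description.

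**Figure D5:**
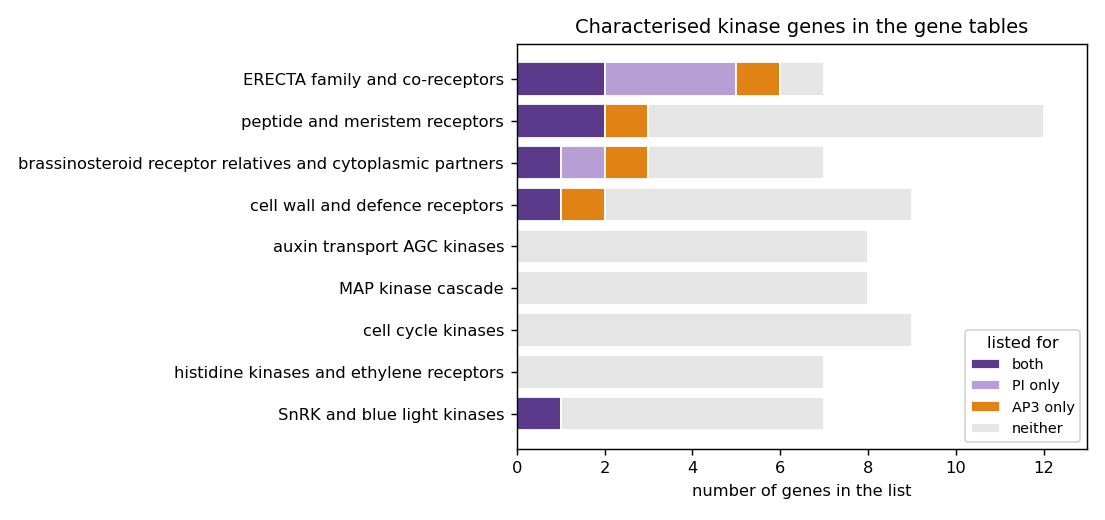
Number of genes in each of the 9 lists of characterised kinase genes (horizontal axis, a count), divided by whether both tables, PI alone, AP3 alone or neither listed them. The ERECTA family and co-receptors have 6 of 7 genes listed for either factor, and 4 lists have none. The lists are selections. Listed kinases outside them, such as CDKD1;1 and MKK8, are not shown, nor are the 7 loci left out by the rule.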

How the data were processed

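Binding of PI-GFP and AP3-GFP was measured in 1 library each. Per the submitters' processing notes, BWA 0.6.1, SAMtools and the TAIR10 build were used. How peaks were called, at what threshold and with which gene models, is not given in the sources used here. The authors deposited peak lists and gene tables whose values are a score per peak, called Poisson in the file headers, and, per the file headers, the highest such score in each gene window. Other columns give positions and widths in bp. Peaks were called per library, the number of reads is unknown, and the PI list held 1852 peaks and the AP3 list 1524.

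Members were found by a word search of the annotation text, and classes were assigned by hand from names and text without scores. Members, lists and the naming rule were chosen with earlier results of these data known. Named were the highest-scoring loci of each class and factor, the 3 highest listed for 1 factor, the 2 lowest per factor and genes of the kinase lists above the median score. Other genes were added after their values were seen, to describe families. A gene was tied to a peak by chromosome and an identical score held by 1 peak, which placed 106 of 139 PI-listed and 84 of 121 AP3-listed members. Peaks overlapping by 1 bp or more were called shared. Intervals are exact 95% intervals (Clopper-Pearson for shares, binomial order statistics for medians, SciPy 1.17.1). They cover counting error over loci only, and neighbouring loci that share a peak are not independent. For symbols and biotypes, 178 of 179 members were matched by locus name to RefSeq (assembly TAIR10.1), whose coordinates were not used. Alternatives changed what counts as a kinase, the gene window, the score threshold, the assignment of peaks to genes, the list length and the overlap rule. A CArG box search and a search for a kinase signature in proteins were planned and not run, as no genome or protein sequence was used here.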

Additional observations from a re-analysis of the deposited data

How the results depend on the processing

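The share of kinase-annotated loci listed for both factors, 45.3%, ranged from 38.7% to 47.9% with kinase products alone, an InterPro kinase domain (added after seeing the data), gene windows cut to the gene and the 1000 bp before it, peaks kept for 1 gene, or a PI list as short as the AP3 list. With cut windows it was 38.7%, beside 46.8% of all loci under that setting. Peaks kept for 1 gene gave 40.4% beside 42.2%, and the shorter PI list 46.9% beside 51.0%. The members' share was 58.3% (49 of 84) with scores at or above the median, beside 55.0% of all loci under that setting. It was 59.3% (16 of 27) for peaks listed for no other locus, a setting added after seeing the data and not computed over all loci. With each peak kept for 1 gene, 42.5% of PI-listed members had their highest score 0 to 1000 bp upstream. That setting preferred genes with the peak inside, then those with it 0 to 1000 bp upstream, so it favours this window by design. It moved only scores held by a single peak of a chromosome, and genes in equal windows kept the peak together. The share of all listed loci in this window under that setting was not computed. The highest peaks of members overlapped at 81.8% (54 of 66) when a reciprocal overlap of 50% was required, a rule not applied to all loci. The 4 member values 58.3%, 59.3%, 42.5% and 81.8% left the 95% interval of the value reported, and the other 18 computed stayed within it. The CArG box results and the protein kinase signature alternative were not run. No paired analysis was possible because each group has 1 library, and for the same reason no library could be left out. Depth is unknown, so absence from a table may reflect the threshold.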
